A study of Mus musculus with 12 samples.

Results

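Collagen genes are described here across 12 libraries of mouse cells. Every gene whose symbol reads Col, a number, the letter a and a number was taken from the deposited expression table, which gave 44 of 24098 genes. By collagen type, 11 of them encode fibrillar chains, 6 encode basement membrane chains of type IV and 27 encode chains of other types. Values are FPKM, fragments scaled to transcript length and to the size of the library, so that levels of different genes are compared per transcript length. Of the 44 genes, 35 reached 1 FPKM in at least 1 library, 21 of which reached 10 FPKM.

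The libraries were made from polyA RNA of mouse embryonic fibroblasts (MEFs) with GFP tagged to Oct4 and of cells derived from them by pMXs retroviruses carrying Oct4, Sox2, Klf4 and c-Myc (OSKM). D0 was the fibroblast population labelled WT and D3 the unsorted population of day 3 after infection. On days 6 and 9 cells were sorted by Thy-1, a fibroblast surface protein, into D6T- and D9T- (Thy-1-) and D6T+ and D9T+ (Thy-1+), and on days 12 and 16 by SSEA-1, a sugar epitope on the surface of pluripotent cells, into D12S+ and D16S+ (SSEA-1+) and D12S- and D16S- (SSEA-1-). D6T-, D9T-, D12S+ and D16S+ are called switched fractions below, since the marker they were sorted by had changed. D6T+, D9T+, D12S- and D16S- are called unswitched fractions. Both names refer to the sorting marker of that day alone. Thy1 RNA was at 669 FPKM in D0, 477 in D6T+ and 491 in D9T+, compared with 75.7 in D12S- and 44.8 in D16S-. Induced pluripotent stem cells (iPSCs) and the mouse embryonic stem cell line D3 (mESCs, not to be confused with the library D3) completed the set. The fibroblasts came from mid-gestation embryos, were used at low passage and were grown in medium with serum. Per the labels, the reprogramming cells, iPSCs and mESCs were grown in FF medium, which held serum replacement, LIF, bFGF, CHIR99021 and ascorbic acid, whereas the study's methods also name other media for reprogramming and, for the pluripotent lines, a serum medium or a serum replacement medium without these additions. Where the medium did change after D0, its effect and that of reprogramming cannot be told apart. Ascorbic acid is known as a cofactor of the enzymes that hydroxylate collagen. The number of iPSC clones and of embryos behind the fibroblasts was not given in the sources used here.

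Collagens are extracellular proteins in which alpha chains wind around each other to form a stiff helix. Fibrillar types such as I, III and V assemble into the cables of connective tissue and are a characteristic product of fibroblasts. Type IV forms the sheet-like network of basement membranes, on which epithelial cells and the early embryo rest. Other types decorate fibrils, link cells to the matrix or span the cell membrane.

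Each condition had 1 library, so the differences below have no check by replicates and no p-value is given. Genes were counted as higher or lower when they differed at least 2-fold on log2(FPKM + 1), among the 14178 genes, 35 collagen genes included, that reached 1 FPKM in at least 1 library. The share of all 14178 genes past the same fold stands beside the main count of each comparison. The depth of the libraries relative to D0 was between 0.967 in D9T+ and 1.56 in D6T-, as estimated from the steps between low values, and the absolute depth is unknown. Marker genes were read against the labels. All 9 fibroblast markers examined reached 1 FPKM in D0, where 1 of 8 pluripotency markers did (Dppa5a at 1.34 FPKM), and all 8 pluripotency markers did so in D12S+, D16S+, iPSCs and mESCs but also in D9T- and the SSEA-1- fraction D16S-. Of the 9 fibroblast markers, 6 reached 1 FPKM in iPSCs and 5 in each of D16S+ and mESCs. In mESCs Pdgfrb was at 14.3 FPKM and Thy1 at 9.00. In bulk RNA, fewer cells of a type and less RNA of a gene per cell cannot be told apart, and this holds for every difference given here.

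The collagen genes together held 1.49% of the summed FPKM of D0 and 0.582% of that of D3. In the switched fractions the share was 0.191% in D6T-, 0.164% in D9T-, 0.158% in D12S+ and 0.0622% in D16S+. In the unswitched fractions it was 0.759% in D6T+, 0.598% in D9T+, 0.324% in D12S- and 0.277% in D16S-, and it was 0.0715% in iPSCs and 0.0440% in mESCs. The share was thus higher in the unswitched fraction on each of the 4 sorted days, and D16S+, iPSCs and mESCs were the libraries with the lowest shares.

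The make-up of the collagen signal differed as well. Fibrillar chains made up 73.6% of the collagen FPKM in D0, 66.8% in D3, 14.6% in D16S+, 15.2% in iPSCs and 15.9% in mESCs. Type IV chains made up 8.28% of it in D0, 24.8% in D3, 29.7% in D16S+, 49.3% in iPSCs and 44.4% in mESCs. In D16S- the fibrillar, type IV and other chains had 28.7%, 34.0% and 37.3%. The collagen gene with the highest level was Col1a1 in D0, where it ranked 10 among all genes, and also in D3, D6T+, D9T+ and D12S-. It was Col3a1 in D6T- and D9T-, Col4a1 in D16S- and Col18a1 in D12S+, D16S+, iPSCs and mESCs, where Col18a1 ranked 1233 among all genes.

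**Figure D1:**
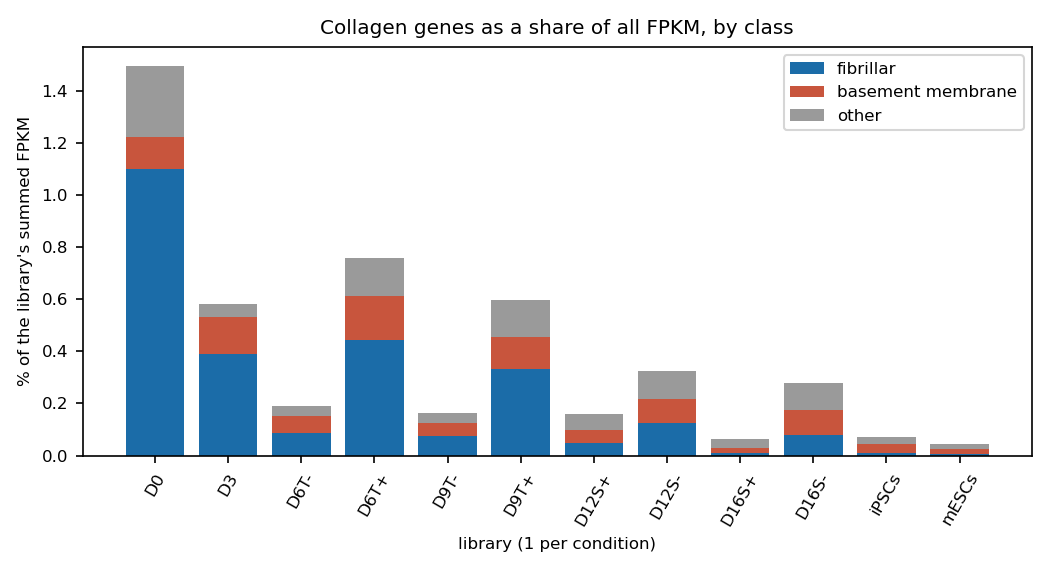
Summed FPKM of the collagen genes as a percentage of each library's summed FPKM, stacked by class, with 1 bar for each of the 12 libraries. The bar of D0 reaches 1.49% and is mostly fibrillar, and those of D16S+, iPSCs and mESCs stay at 0.0622%, 0.0715% and 0.0440%.

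**Figure D2:**
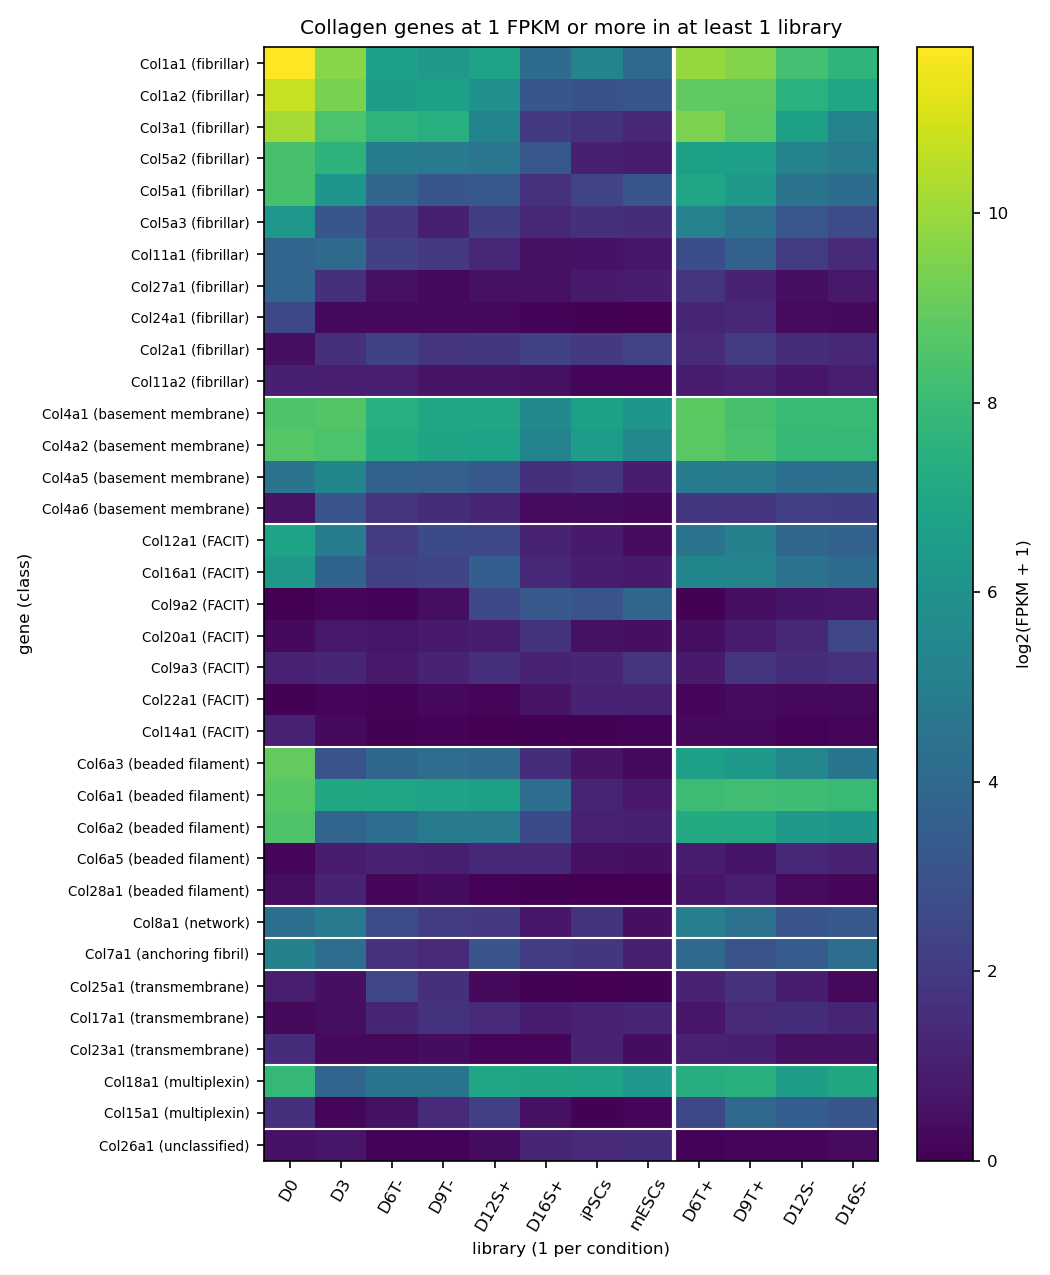
Level of the 35 collagen genes that reached 1 FPKM, as log2(FPKM + 1) in colour, with genes in rows by class and libraries in columns. The column groups left and right of the white line hold unsorted, switched (Thy-1- or SSEA-1+) and pluripotent cells, and the unswitched (Thy-1+ or SSEA-1-) fractions.

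Sequences upstream of several genes are shown because their transcripts behaved differently in these libraries. Col1a2 and Col3a1 were lower in pluripotent cells than in D0. Col6a1 parted from Col6a2 and Col6a3, chains of the same collagen type, most of all in D3. Col18a1 had the highest collagen level in iPSCs and mESCs, and Col9a2 was higher there than in D0. The sequences come from RefSeq windows that end at an annotated start, were placed on the mm9 build by exact match and were shortened where a GENCODE M1 exon reached into them. The Col1a2 stretch lies in an intron of a longer annotated Col1a2 transcript, and the others lie before the first annotated exon of their gene. Capitals mark the letters CCAAT wherever they stand on either strand of the DNA. The letters TATAAA are marked in the same way, as is the sequence GGGCGG, and each line reads 5′ to 3′ on the strand of the gene.
Col1a2, chr6:4455370-4455492, plus strand: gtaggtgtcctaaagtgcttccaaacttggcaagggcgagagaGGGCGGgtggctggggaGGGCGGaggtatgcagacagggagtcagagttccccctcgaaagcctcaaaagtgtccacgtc
Col3a1, chr1:45368133-45368382, plus strand: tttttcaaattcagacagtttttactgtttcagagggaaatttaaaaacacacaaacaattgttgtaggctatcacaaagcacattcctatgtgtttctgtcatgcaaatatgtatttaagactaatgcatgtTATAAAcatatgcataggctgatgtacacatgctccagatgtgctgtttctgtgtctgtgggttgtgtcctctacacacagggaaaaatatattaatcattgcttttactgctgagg
Col6a1, chr10:76188914-76189039, minus strand: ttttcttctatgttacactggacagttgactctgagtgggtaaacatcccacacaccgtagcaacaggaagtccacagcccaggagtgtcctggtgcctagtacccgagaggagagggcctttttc
Col6a2, chr10:76086376-76086625, minus strand: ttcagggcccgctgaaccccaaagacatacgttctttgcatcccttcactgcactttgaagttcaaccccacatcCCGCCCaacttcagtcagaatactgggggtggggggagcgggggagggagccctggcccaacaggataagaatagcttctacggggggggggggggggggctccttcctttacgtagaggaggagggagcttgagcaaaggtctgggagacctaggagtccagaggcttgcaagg
Col6a3, chr1:92740549-92740798, minus strand: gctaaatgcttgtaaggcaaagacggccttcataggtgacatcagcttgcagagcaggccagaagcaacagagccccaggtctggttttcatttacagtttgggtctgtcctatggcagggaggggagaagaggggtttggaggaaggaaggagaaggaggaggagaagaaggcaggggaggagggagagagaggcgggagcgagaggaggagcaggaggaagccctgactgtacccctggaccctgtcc
Col18a1, chr10:76629294-76629525, minus strand: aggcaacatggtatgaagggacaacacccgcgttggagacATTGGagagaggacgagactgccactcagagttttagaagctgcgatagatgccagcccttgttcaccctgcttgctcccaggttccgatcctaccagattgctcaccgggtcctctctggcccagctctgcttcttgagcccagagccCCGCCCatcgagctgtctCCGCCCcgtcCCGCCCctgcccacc
Col9a2, chr4:120711921-120711989, plus strand: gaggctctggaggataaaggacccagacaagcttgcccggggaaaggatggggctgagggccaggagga

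Among the 38 windows of 250 bases that RefSeq gave for 35 collagen genes, 57.9% held GGGCGG or CCGCCC, compared with 32.7% of all 32851 windows. CCAAT or ATTGG was present in 34.2% of the collagen windows and 33.8% of all windows, and TATAAA or TTTATA in 13.2% and 12.4%. Both strands were searched, overlapping matches were kept, and a match describes the sequence alone. The percentages count whole windows, of which the printed stretches are in part shortened. Col1a2 held CCAAT or ATTGG, and Col9a2 GGGCGG or CCGCCC, in window bases that are not printed. The printed stretch of Col3a1 held 1 TATAAA and no CG dinucleotide. That of Col18a1 held 3 copies of CCGCCC, 1 ATTGG and 11 CG dinucleotides.

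The fibrillar collagens were examined first. In iPSCs 9 of the 11 fibrillar genes were at least 2-fold lower than in D0 and 1 was higher, Col2a1. The median difference of the class was -4.66 on the log2 scale, compared with 0.03 for all 14178 genes. Over all 35 collagen genes the counts were 22 lower and 3 higher, where 21.6% of all genes were lower and 18.7% higher. In mESCs the counts against D0 were also 22 and 3, with 21.9% and 20.7% of all genes, and the fibrillar median was -4.71. Col14a1 reached 1 FPKM in D0 alone, and Col22a1 in iPSCs and mESCs alone. The filter thus favoured counting Col14a1 as lower in iPSCs and Col22a1 as higher in both lines. With at least 5 FPKM required in at least 1 library, 20 collagen genes were lower and 1 higher in each line.

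Type I collagen, built from the chains of Col1a1 and Col1a2, is the main protein of tendon, skin and bone. Col1a1 was at 3453 FPKM in D0 and 798 in D3, at 98.2 in D6T- against 960.0 in D6T+, 81.1 in D9T- against 752 in D9T+, 113 in D12S+ against 298 in D12S- and 16.3 in D16S+ against 208 in D16S-, and at 38.7 FPKM in iPSCs and 15.2 in mESCs. For Col1a2 the levels were 1738 FPKM in D0 and 662 in D3. Col1a2 then had 95.2, 101, 60.9 and 7.72 FPKM in the switched fractions of days 6, 9, 12 and 16, compared with 471, 458, 180.3 and 117 FPKM in the unswitched fractions, and it had 6.65 FPKM in iPSCs and 7.98 in mESCs. Both were highest in D0, both were lower in the switched fraction on all 4 sorted days, and no library outside D0 reached the D0 level of either gene. In iPSCs Col1a1 stood at 1.12% of its D0 level and Col1a2 at 0.382%, differences of -6.44 and -7.83. The interval that the authors' software gave for Col1a1 was unusually narrow in D0, from 3442 to 3465 FPKM, and ran from 2.04 to 75.3 FPKM in iPSCs. For Col1a2 the interval in D0 ran from 0 to 4992 FPKM and enclosed that of iPSCs.

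Type III collagen, encoded by Col3a1, accompanies type I in extensible tissues. The level of Col3a1 was 1175 FPKM in D0, 339.6 in D3, 198 in D6T-, 689.9 in D6T+, 164 in D9T-, 434 in D9T+, 37.9 in D12S+, 101 in D12S-, 2.97 in D16S+, 37.2 in D16S-, 2.29 in iPSCs and 1.55 in mESCs. Its difference between iPSCs and D0, -8.48, was the most negative of all collagen genes on log2(FPKM + 1). As a percentage of D0 the level of Col6a3 in iPSCs was lower, at 0.107% compared with 0.195% for Col3a1. Col3a1 was above Col1a1 in D6T- and D9T-, with ratios of 2.01 and 2.02, and below it in the other 10 libraries. Its locus on chromosome 1, from 45368383 to 45406551, lies tail to tail with Col5a2, which starts on the opposite strand and ends 24.6 kb away.

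Type V chains nucleate the fibrils of type I. For Col5a1 the levels were 321 FPKM in D0 and 70.7 in D3. Col5a1 then had 13.6, 7.89, 8.36 and 2.15 FPKM in the switched fractions of days 6, 9, 12 and 16, compared with 118, 80.2, 22.3 and 16.8 FPKM in the unswitched fractions, and it had 4.26 FPKM in iPSCs and 7.81 in mESCs. It was lower in the switched fraction on each of the 4 days. Col5a2 was at 327 FPKM in D0 and 194 in D3, at 29.8 in D6T- against 102 in D6T+, 28.1 in D9T- against 97.6 in D9T+, 23.8 in D12S+ against 37.8 in D12S- and 8.05 in D16S+ against 26.7 in D16S-, and at 1.01 FPKM in iPSCs and 0.871 in mESCs. The level of Col5a3 was 75.9 FPKM in D0, 7.84 in D3, 2.84 in D6T-, 35.9 in D6T+, 1.07 in D9T-, 20.9 in D9T+, 3.52 in D12S+, 8.05 in D12S-, 1.58 in D16S+, 5.71 in D16S-, 2.05 in iPSCs and 1.94 in mESCs. All 3 were highest in D0. Col5a1 and Col5a2 had like levels in D0, with a ratio of 0.983, but the ratio was 0.365 in D3, 0.267 in D16S+ and 4.20 in iPSCs, so these chains did not keep step. Col5a1 was lowest in D16S+, whereas Col5a2 was lowest in mESCs.

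Type XI chains form the thin fibrils of cartilage and can replace those of type V. The level of Col11a1 was 13.3 FPKM in D0, 15.5 in D3, 3.88 in D6T-, 6.07 in D6T+, 2.87 in D9T-, 11.7 in D9T+, 1.59 in D12S+, 3.24 in D12S-, 0.422 in D16S+, 1.70 in D16S-, 0.504 in iPSCs and 0.659 in mESCs. Unlike the other abundant fibrillar genes, Col11a1 was not lower in D3 than in D0 (difference 0.20) and was at least 2-fold above both day-6 fractions in D3. Col11a2 stayed between 0.138 FPKM in mESCs and 1.09 FPKM in D9T+.

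The remaining fibrillar genes had low levels. For Col27a1 the levels were 13.3 FPKM in D0 and 1.99 in D3. Col27a1 then had 0.454, 0.185, 0.441 and 0.439 FPKM in the switched fractions of days 6, 9, 12 and 16, compared with 2.50, 1.22, 0.399 and 0.721 FPKM in the unswitched fractions, and it had 0.821 FPKM in iPSCs and 0.935 in mESCs. Col27a1 was thus highest in D0 and stayed at or below 2.50 FPKM in the other 11 libraries. Col24a1 was between 0.0127 FPKM in mESCs and 4.79 FPKM in D0. Col2a1, the chain of cartilage type II collagen, was lowest in D0 (0.412 FPKM) and highest in mESCs (4.40 FPKM), and was at 3.03 FPKM in iPSCs. A chondrocyte list (Acan, Comp, Matn1, Matn3, Sox9) summed to between 0.775 FPKM in D6T- and 13.8 FPKM in mESCs, with Sox9 at 0.322 FPKM in mESCs and Acan at 4.86 FPKM, and the part of such cells in the Col2a1 values was not tested.

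**Figure D3:**
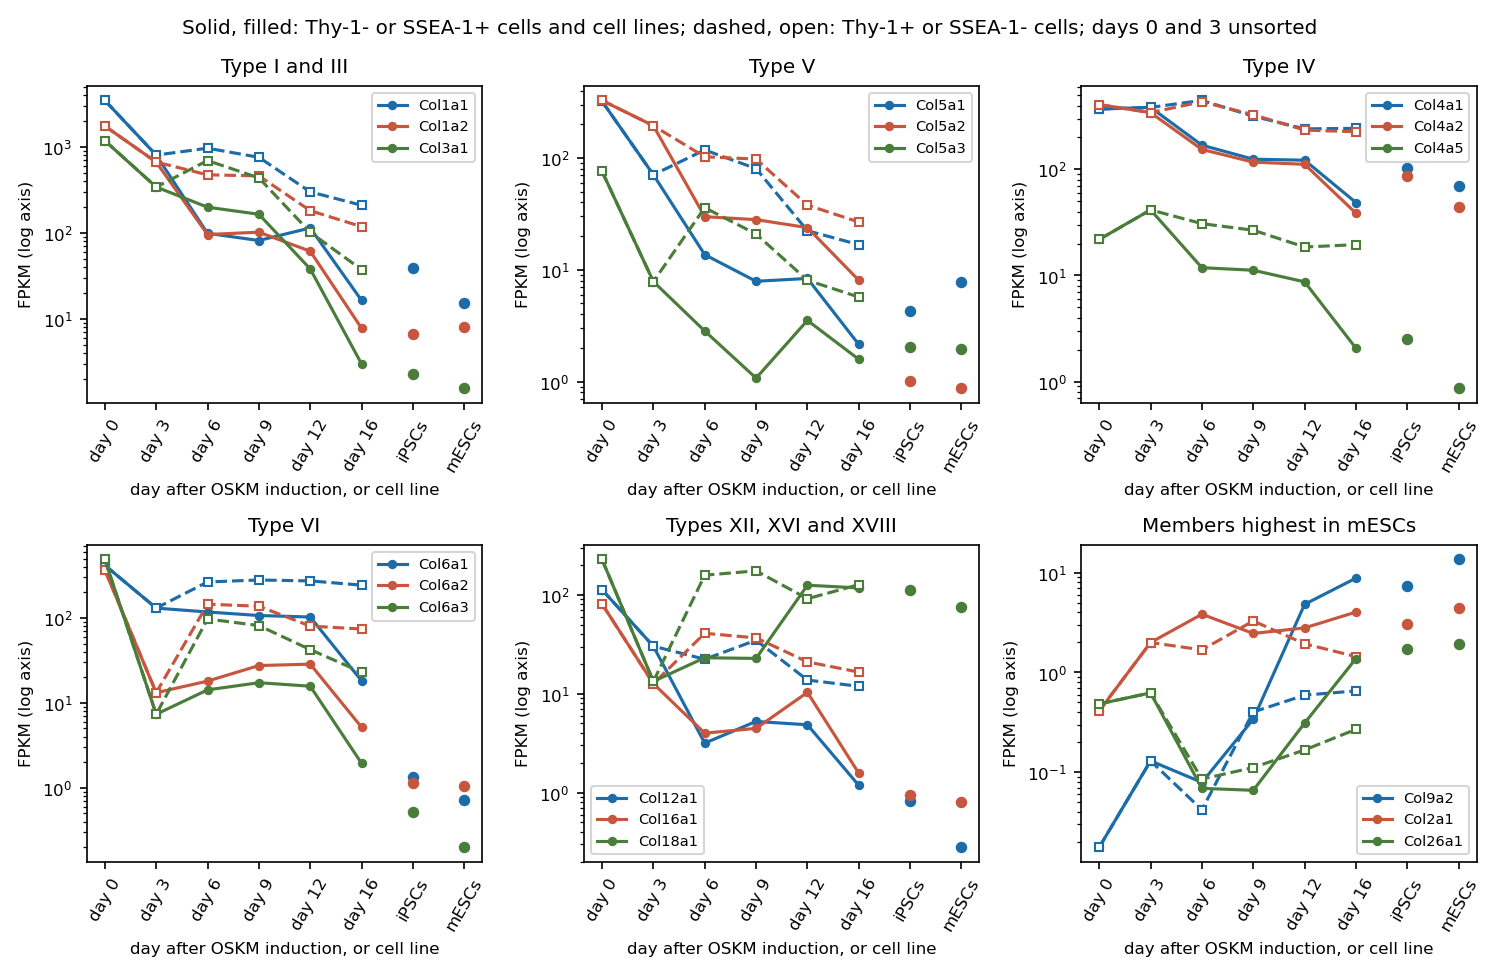
FPKM on a log axis of 3 genes in each of 6 panels, with filled symbols and solid lines for D0, D3 and the switched (Thy-1- or SSEA-1+) fractions, separate filled symbols for iPSCs and mESCs, and open symbols with dashed lines for the unswitched (Thy-1+ or SSEA-1-) fractions. Col1a1, Col1a2 and Col3a1 start at 3453, 1738 and 1175 FPKM in D0 and are lower in every later library, whereas Col9a2 is at 0.0176 FPKM in D0 and 13.6 FPKM in mESCs.

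The basement membrane genes were measured next. Of the 6 genes of type IV, Col4a1, Col4a2, Col4a5 and Col4a6 reached 1 FPKM, while Col4a3 and Col4a4 stayed at or below 0.0934 and 0.556 FPKM. Their median difference from D0 was 0.47 in D3 and 0.37 in D6T+, and none of the 4 was at least 2-fold lower in either library. In iPSCs 3 of the 4 were lower than in D0, with a median of -2.03, which compares with -4.66 for the fibrillar genes. Of the 20 genes of other types, 10 were lower and 2 higher in iPSCs than in D0 (21.6% and 18.7% of all genes). Their median was -0.99.

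Col4a1 and Col4a2 encode the chains of the widespread form of type IV collagen. Col4a1 was at 371 FPKM in D0 and 384 in D3, at 169 in D6T- against 447 in D6T+, 125 in D9T- against 317 in D9T+, 122 in D12S+ against 241 in D12S- and 48.7 in D16S+ against 244 in D16S-, and at 102 FPKM in iPSCs and 70.2 in mESCs. For Col4a2 the levels were 408 FPKM in D0 and 343 in D3. Col4a2 then had 154, 117, 112 and 38.6 FPKM in the switched fractions of days 6, 9, 12 and 16, compared with 435, 328, 235 and 227 FPKM in the unswitched fractions, and it had 87.6 FPKM in iPSCs and 44.5 in mESCs. Both were highest in D6T+ and lowest in D16S+, and both were higher in iPSCs than in D16S+, by 1.06 and 1.16 on the log2 scale. The genes lie head to head on chromosome 8, Col4a1 from 11198423 to 11312826 on the minus strand and Col4a2 from 11312805 to 11449287 on the plus strand, with 21 bases between their annotated starts. Their ratio stayed between 0.908 in D0 and 1.57 in mESCs, with a median of 1.08 over the 12 libraries.

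Col4a5 and Col4a6, on chromosome X and also head to head with 1308 bases between them, encode chains of more restricted basement membranes. The level of Col4a5 was 21.8 FPKM in D0, 41.6 in D3, 11.8 in D6T-, 30.8 in D6T+, 11.2 in D9T-, 26.7 in D9T+, 8.71 in D12S+, 18.5 in D12S-, 2.06 in D16S+, 19.5 in D16S-, 2.51 in iPSCs and 0.863 in mESCs. Col4a5 was highest in D3 and lowest in mESCs. Col4a6 was likewise highest in D3, at 7.46 FPKM compared with 0.534 FPKM in D0, with levels of 3.57 FPKM in D16S- and 0.191 in mESCs. Where both were at 1 FPKM or more, in 8 libraries, Col4a5 exceeded Col4a6 by between 4.65 and 11.6 times.

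Markers of other cells that make basement membrane were read beside these values. The list of primitive and parietal endoderm genes summed to between 11.4 FPKM in D16S+ and 73.2 FPKM in mESCs. Within it, Lama1, a laminin chain of the same membranes, was at 1.38 FPKM in D0, 22.5 in D3 and 46.3 in mESCs, while Sox17 was listed at 0 in D0, D3, D6T-, D6T+ and D9T+. Dab2 of the same list was at 8.45 FPKM in D0, 7.96 in D6T+ against 2.43 in D6T-, and 4.01 in D16S- against 1.07 in D16S+, its lowest value. Lama1, in contrast, was at 29.9 FPKM in D6T- against 13.2 in D6T+, but at 5.57 in D16S+ against 13.7 in D16S-. In D6T- 1 of the 7 endoderm genes that reached 1 FPKM was higher than in D6T+ and 2 were lower (2.93% and 9.47% of all genes). In D16S+ 0 were higher than in D16S- and 2 were lower (11.8% and 15.2%). The endothelial list summed to between 9.43 and 62.7 FPKM, of which Pecam1, also expressed by pluripotent cells, made up 61.1 FPKM in mESCs, and Emcn was listed at 0 in D12S+, D12S-, D16S+, D16S-, iPSCs and mESCs. Cdh5 of this list was at 11.8 FPKM in D0, 1.89 in D16S+ against 5.77 in D16S-, and 3.98 in D12S+ against 3.49 in D12S-. Pecam1 was at 31.9 FPKM in D16S+ against 2.39 in D16S-. Of the 4 endothelial genes that reached 1 FPKM, 1 was higher and 2 were lower in D16S+ than in D16S-. In D6T- 1 was higher and 1 lower than in D6T+. The part of such cells in the type IV levels was not tested.

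Type VI collagen forms beaded filaments around cells from the chains of Col6a1, Col6a2 and Col6a3. For Col6a1 the levels were 417 FPKM in D0 and 130.4 in D3. Col6a1 then had 117, 107, 102 and 18.2 FPKM in the switched fractions of days 6, 9, 12 and 16, compared with 265, 279, 273 and 243 FPKM in the unswitched fractions, and it had 1.36 FPKM in iPSCs and 0.719 in mESCs. Col6a1 was at a like level in D6T-, D9T- and D12S+. The level of Col6a2 was 367 FPKM in D0, 13.2 in D3, 18.04 in D6T-, 145 in D6T+, 27.5 in D9T-, 137 in D9T+, 28.6 in D12S+, 80.1 in D12S-, 5.17 in D16S+, 74.0 in D16S-, 1.15 in iPSCs and 1.04 in mESCs. Col6a3 was at 488 FPKM in D0 and 7.35 in D3, at 14.2 in D6T- against 97.2 in D6T+, 17.3 in D9T- against 81.2 in D9T+, 15.7 in D12S+ against 42.4 in D12S- and 1.94 in D16S+ against 22.9 in D16S-, and at 0.523 FPKM in iPSCs and 0.2 in mESCs. In D0 these chains had like levels, with a Col6a1 to Col6a2 ratio of 1.13 and a Col6a1 to Col6a3 ratio of 0.854. In D3, however, Col6a2 was at 3.59% and Col6a3 at 1.505% of their D0 levels, while Col6a1 was at 31.3%, and the Col6a1 to Col6a3 ratio was 17.8 in D3. The Col6a2 to Col6a3 ratio was 1.79 in D3. Among the sorted fractions the Col6a1 to Col6a3 ratio lay between 2.73 in D6T+ and 10.6 in D16S-. Col6a2 and Col6a3 were both higher in each fraction of day 6 than in unsorted D3. Col6a1 in D16S- was at 243 FPKM, 58.3% of D0, and Col6a3 there was at 4.70% of D0.

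**Figure D4:**
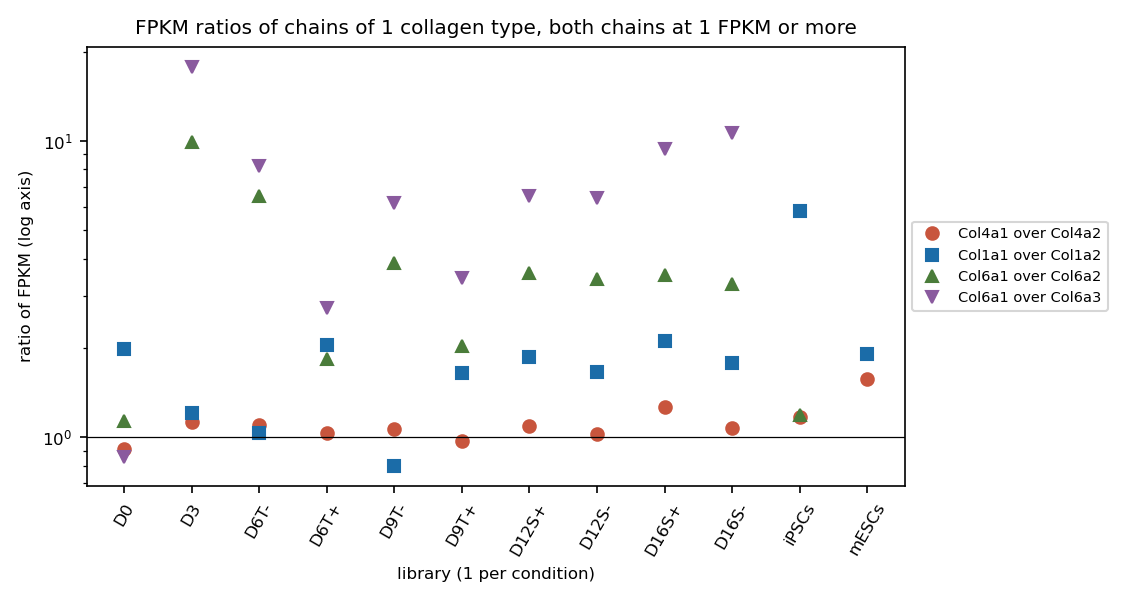
Ratios of FPKM, on a log axis, between chains of the same collagen type in each library where both chains were at 1 FPKM or more. The Col4a1 to Col4a2 ratio stays between 0.908 and 1.57, while the Col6a1 to Col6a3 ratio runs from 0.854 in D0 to 17.8 in D3.

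The other members of the beaded filament group were near the limit. Col28a1 reached 1.19 FPKM in D3 and Col6a5 reached 1.59 FPKM in D12S+, with 0.125 FPKM in D0. Col6a4 and Col6a6 stayed below 1 FPKM, at 0.556 and 0.909 FPKM at most.

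Col15a1 and Col18a1 encode the multiplexins, basement membrane proteins whose ends give antiangiogenic fragments (endostatin in the case of Col18a1). The level of Col18a1 was 228 FPKM in D0, 13.3 in D3, 23.1 in D6T-, 158 in D6T+, 22.7 in D9T-, 175 in D9T+, 125 in D12S+, 91.3 in D12S-, 117 in D16S+, 127 in D16S-, 113 in iPSCs and 75.3 in mESCs. The difference between D3 and D0 was -4.00, yet the level in D6T+ and D9T+ was again 69.2% and 76.6% of that in D0. Col18a1 was among the genes at least 2-fold lower than in D0 in both pluripotent lines, with differences of -1.01 in iPSCs and -1.59 in mESCs. The iPSC value lay close to the threshold. With libraries set to the same total FPKM, 20 collagen genes instead of 22 were lower in iPSCs than in D0. For Col15a1 the levels were 2.04 FPKM in D0 and 0.154 in D3. Col15a1 then had 0.419, 1.76, 3.66 and 0.453 FPKM in the switched fractions of days 6, 9, 12 and 16, compared with 4.86, 15.1, 10.5 and 7.78 FPKM in the unswitched fractions, and it had 0.0566 FPKM in iPSCs and 0.129 in mESCs. Col15a1, in contrast, was highest in D9T+ and lowest in iPSCs, and its difference between D16S- and D0 was 1.53.

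The FACIT group, chains that sit on the surface of fibrils, held genes of opposite behaviour. Col12a1 was at 113 FPKM in D0 and 30.2 in D3, at 3.16 in D6T- against 22.3 in D6T+, 5.24 in D9T- against 34.7 in D9T+, 4.85 in D12S+ against 13.7 in D12S- and 1.18 in D16S+ against 11.9 in D16S-, and at 0.823 FPKM in iPSCs and 0.279 in mESCs. For Col16a1 the levels were 80.8 FPKM in D0 and 12.6 in D3. Col16a1 then had 3.99, 4.46, 10.3 and 1.57 FPKM in the switched fractions of days 6, 9, 12 and 16, compared with 40.8, 36.7, 20.97 and 16.5 FPKM in the unswitched fractions, and it had 0.934 FPKM in iPSCs and 0.798 in mESCs. Both were highest in D0 and below 1 FPKM in iPSCs and mESCs. For Col16a1 the interval in iPSCs lay wholly below that in D0, as it did for Col1a1, and these were the only 2 collagen genes of which this was true. Of all genes, 0.522% had intervals apart in that direction, and 0.466% in the other, in which no collagen gene did. The level of Col9a2 was 0.0176 FPKM in D0, 0.13 in D3, 0.0791 in D6T-, 0.042 in D6T+, 0.34 in D9T-, 0.402 in D9T+, 4.83 in D12S+, 0.592 in D12S-, 8.83 in D16S+, 0.654 in D16S-, 7.39 in iPSCs and 13.6 in mESCs. Col9a2, a chain of type IX collagen, was thus highest in mESCs and at 0.592 FPKM or less in D12S- and in every library before day 12. Its partners differed from it: Col9a1 stayed at or below 0.613 FPKM, and Col9a3 was between 0.772 and 2.55 FPKM in all libraries. The Col9a3 locus overlaps that of Tcfl5, which reached 12.8 FPKM, so reads of both genes may be shared.

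Further FACIT genes were low. Col14a1 was highest in D0 at 1.09 FPKM and Col22a1 was highest in iPSCs at 1.21 FPKM, with 0.0382 FPKM in D0. Col20a1 was highest in D16S- at 4.73 FPKM and was at 0.215 FPKM in D0. Col19a1 stayed at or below 0.0295 FPKM.

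Col7a1 encodes the anchoring fibrils that attach epidermis to dermis, and Col8a1 a short chain that forms hexagonal networks. Col7a1 was at 34.3 FPKM in D0 and 17.7 in D3, at 2.18 in D6T- against 15.3 in D6T+, 1.63 in D9T- against 7.13 in D9T+, 7.55 in D12S+ against 9.68 in D12S- and 3.13 in D16S+ against 17.8 in D16S-, and at 2.64 FPKM in iPSCs and 1.03 in mESCs. For Col8a1 the levels were 18.7 FPKM in D0 and 28.7 in D3. Col8a1 then had 5.46, 3.10, 2.88 and 0.613 FPKM in the switched fractions of days 6, 9, 12 and 16, compared with 31.6, 20.3, 7.5 and 8.68 FPKM in the unswitched fractions, and it had 2.31 FPKM in iPSCs and 0.393 in mESCs. Both were lower in iPSCs than in D0, but Col8a1 was highest in D6T+ and not in D0. Keratinocyte markers summed to 0.763 FPKM in D0 and 46.1 FPKM in D16S-, of which Krt14 made up 39.9 FPKM. Trp63 of the same list was at 0.568 FPKM in D0 and 0.117 in D16S-. Krt14 was at 7.10 FPKM in D6T- against 4.82 in D6T+ and at 19.2 in D9T- against 11.2 in D9T+. Col7a1, in contrast, was lower in D6T- and D9T-. Of the 3 keratinocyte genes that reached 1 FPKM, 3 were lower in D16S+ than in D16S- (15.2% of all genes). None differed 2-fold between the fractions of days 6, 9 and 12. The part of such cells in the Col7a1 level of D16S- (17.8 FPKM, against 3.13 in D16S+) was not tested. The other network genes, Col8a2 and Col10a1, stayed at or below 0.131 and 0.384 FPKM.

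The membrane-spanning collagens stayed at or below 4.75 FPKM. Col23a1 was highest in D0 at 1.84 FPKM and was at 1.27 FPKM in iPSCs and 0.314 in mESCs. Col25a1 was highest in D6T- at 4.75 FPKM, compared with 1.27 FPKM in D6T+. Col17a1, a hemidesmosome protein of epithelia, was lowest in D0 at 0.242 FPKM and highest in D9T- at 2.27 FPKM. Col13a1 reached 0.969 FPKM in mESCs and the unclassified Col26a1 reached 1.93 FPKM there.

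The time course was then compared with D0. In D3, 15 of the 35 collagen genes were lower and 2 higher, Col2a1 and Col4a6, where 8.67% of all genes were lower and 5.76% higher. By class, 7 of 11 fibrillar genes, none of the 4 type IV genes and 8 of 20 others were lower. In D6T+, cells that had kept Thy-1, 12 were lower and 1, Col4a6, was higher (4.39% and 4.83% of all genes), and 8 of these 12 were fibrillar. With libraries set to the same total FPKM, 3 were higher in D6T+, Col2a1, Col4a6 and Col15a1. With a pseudocount of 0.1 the higher genes numbered 5 in D3, 5 in D6T+, 6 in iPSCs and 7 in mESCs. In D0 17 of the 35 genes had their highest value of the 12 libraries, as did 19.8% of all genes.

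D3 was an unsorted population but did not always lie between the sorted fractions of day 6. For 7 of the 35 genes, Col15a1, Col17a1, Col18a1, Col24a1, Col25a1, Col6a2 and Col6a3, the level in D3 was below that in both D6T- and D6T+, a pattern that 29.8% of all genes showed. None of these was 2-fold below both fractions on log2(FPKM + 1), as 1.28% of all genes were. In FPKM without the added 1, Col15a1 and Col25a1 were. Col25a1 was at 0.405 FPKM in D3, 4.75 in D6T- and 1.27 in D6T+. Col11a1 and Col4a6 were at least 2-fold above both fractions, as were 1.12% of all genes, and 16 of the 35 (45.7%) lay between the fractions, as did 42.9% of all genes.

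To compare cells that had and had not changed the marker used for sorting, the fractions of each day were set against each other. In D6T- 19 of the 35 genes were lower than in D6T+ and 1, Col25a1, was higher, where 9.47% and 2.93% of all genes were lower and higher. In D9T- 20 were lower than in D9T+ and none was higher, with 6.45% and 1.81% of all genes. In D12S+ 12 were lower than in D12S- and 1, Col9a2, was higher (3.03% and 4.79% of all genes). In D16S+ 18 were lower than in D16S- and 2, Col2a1 and Col9a2, were higher (15.2% and 11.8% of all genes). No collagen gene had intervals apart in any of the 4 pairs, and the share of all genes with intervals apart was at most 0.0141%.

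The same 12 genes were lower by 2-fold or more in the switched fraction on all 4 days: Col1a1, Col1a2, Col3a1 and Col5a1 of the fibrillar class, Col4a2 and Col4a5 of type IV, and Col6a1, Col6a2, Col6a3, Col8a1, Col12a1 and Col15a1. This was 34.3% of the 35 genes and compares with 1.07% of all genes. At any size of difference, 23 of the 35 were lower on all 4 days, compared with 24.8% of all genes. Col18a1 was not among them, since it was lower in the Thy-1- fractions of days 6 and 9, with differences of -2.72 and -2.89, but 0.45 higher in D12S+ than in D12S-.

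**Figure D5:**
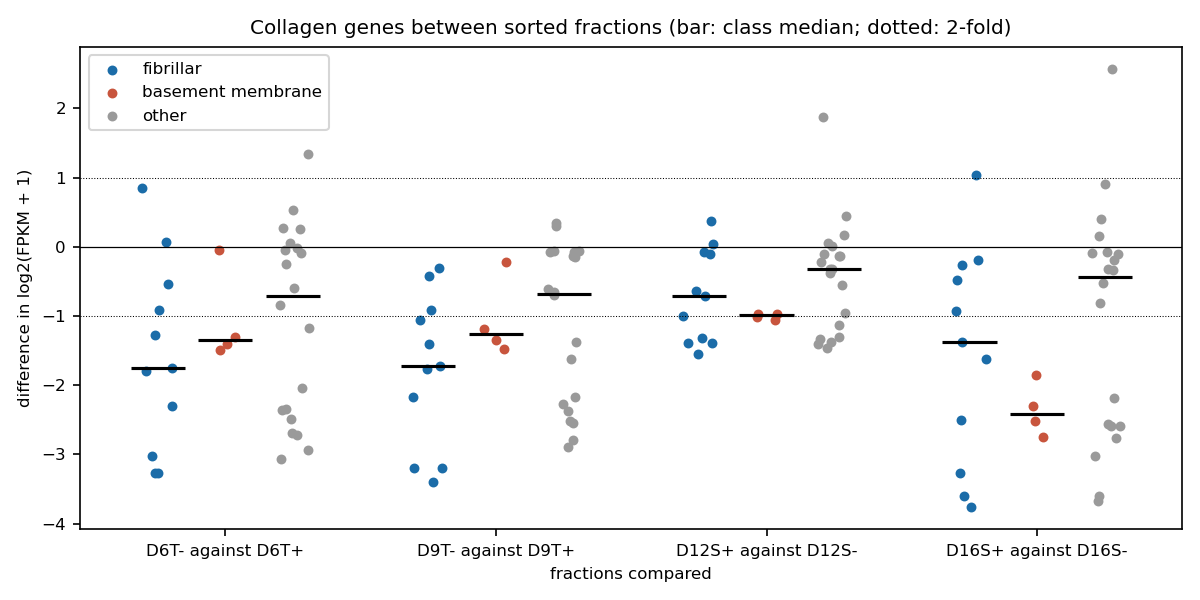
Difference in log2(FPKM + 1) between the sorted fractions of each day for the 35 collagen genes that reached 1 FPKM, with 1 point for each gene, coloured by class, and bars at the class medians. Most points lie below 0 on each day, and the type IV median lies at -2.41 on day 16.

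The median type IV difference between fractions was larger on day 16 than on days 6, 9 and 12. All 4 genes were lower in D16S+ than in D16S-, with a median of -2.41, whereas the fibrillar median was -1.38 and 6 of 11 were lower. Against D0, D16S+ had 22 lower and 4 higher genes (20.9% and 20% of all genes), and D16S- had 14 lower and 3 higher (11.4% and 12.8%). The fibrillar genes were lower than in D0 in both fractions, 9 of 11 each, with medians of -4.90 in D16S+ and -3.52 in D16S-. Of the 4 type IV genes, 3 were lower than in D0 in D16S+ and none was in D16S-, where the median was -0.38. In all, 14 genes were lower than in D0 in both fractions of day 16, as were 9.39% of all genes. At this fold 8 were lower in D16S+ and not in D16S-, as were 11.5% of all genes: Col4a1, Col4a2, Col4a5, Col6a1, Col7a1, Col14a1, Col15a1 and Col23a1. Of these, Col7a1, Col14a1 and Col23a1 came close to the threshold in D16S-, with differences of -0.91, -0.92 and -0.96. Col14a1 had passed the filter through D0 alone. The summed FPKM of the 9 fibroblast markers was 3639 in D0, 590.4 in D16S-, 53.4 in D16S+ and 20.7 in iPSCs, and that of the 8 pluripotency markers was 2.25, 141, 4820 and 3664. S100a4 made up 2253 FPKM of the fibroblast sum in D0 and 442 in D16S-, and Dppa5a 3582 of the pluripotency sum in D16S+. Of the 9 fibroblast markers, 8 were lower in D16S- than in D0 (11.4% of all genes). Dcn was at 1.82 FPKM in D16S- against 117 in D0, and Prrx1 at 30.6 against 44.4. The part of remaining fibroblasts in these differences was not tested.

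The last step and the pluripotent lines were compared in the same way. From D16S+ to iPSCs 4 genes were higher, Col1a1, Col4a1, Col4a2 and Col8a1, and 4 were lower, Col5a2, Col6a1, Col6a2 and Col20a1 (4.38% and 7.77% of all genes). The higher count depended on the scaling: Col1a1 alone was higher when libraries were set to the same total FPKM, and Col1a1 and Col4a2 were under median-of-ratios scaling. The differences as deposited were 1.06 for Col4a1, 1.16 for Col4a2, 1.20 for Col1a1 and 1.04 for Col8a1. On log2(FPKM + 1) Col6a1 differed most, from 18.2 FPKM in D16S+ to 1.36 FPKM in iPSCs. Between iPSCs and mESCs 2 genes were higher in iPSCs, Col1a1 and Col8a1, and none was lower (6.79% and 7.41% of all genes).

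Collagen chains need dedicated enzymes and chaperones, and a list of 29 such genes was examined, of which 26 were in the table and 25 reached 1 FPKM. In iPSCs 23 of the 25 were at least 2-fold lower than in D0 and none was higher, with a median of -2.34, where 21.6% of all genes were lower and 18.7% higher. The lysyl oxidases Loxl1 and Loxl3, which cross-link fibrils, had the most negative differences on log2(FPKM + 1), though not the lowest percentages of D0: Loxl1 was at 203 FPKM in D0 and 1.35 FPKM in iPSCs and Loxl3 at 118 and 0.869 FPKM. In D3 10 were lower and 3 higher than in D0 (8.67% and 5.76% of all genes), and in D16S+ 15 were lower and none higher than in D16S- (15.2% and 11.8%), with a median of -1.41. The summed FPKM of the list was 7029 in D0, 1019 in D16S+, 2488 in D16S- and 1093 in iPSCs.

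Of 10 receptors for collagen, 7 reached 1 FPKM, and 4 of these were lower and none higher in iPSCs than in D0 (median -2.31), with the same 21.6% and 18.7% of all genes. Mrc2, an endocytic collagen receptor, was at 262 FPKM in D0, 47.8 in D16S- and 3.91 in iPSCs. The collagen-activated kinase Ddr2 was at 25.5 FPKM in D0, 18.01 in D16S- and 1.56 in iPSCs, whereas its epithelial relative Ddr1 was at 19.7, 90.4 and 28.2 FPKM.

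Further marker lists were read for cells that fibroblast cultures can contain. In D0 the skeletal muscle genes Myog and Des were at 24.2 and 54.7 FPKM, and in D6T+ at 0.384 and 10.2 FPKM. The leukocyte list summed to between 15.0 FPKM in D6T- and 145 FPKM in D16S-, with Ptprc at or below 0.425 FPKM. In D0 it summed to 29.9 FPKM, of which Cd14 made up 9.79, Lyz2 9.47 and Cd68 9.05 FPKM, whereas Cd68 was the highest of the list in the other 11 libraries. The list for Schwann cells and neural crest was at or below 8.19 FPKM except in iPSCs, where it summed to 23.4 FPKM with Foxd3 at 22.9 FPKM. Their part in the collagen levels was not tested.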

How the data were processed

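Messenger RNA of 12 mouse cell populations was sequenced, with 1 library for each. The authors prepared TruSeq libraries, mapped the reads to mm9 with STAR, removed reads with more than 2 mismatches or more than 1 locus and estimated gene levels with Cuffdiff. Each deposited value is an FPKM and comes with its interval. Versions, the annotation, strand handling in the counting and the total fragments were not given in the sources used here. The labels name a stranded kit and the methods name the kit without that word. Reads of near-identical genes are lost by the locus filter. FPKM is a relative measure, so a change in abundant genes can shift others, depending on the scaling between libraries, which was not given. Median-of-ratios factors of the deposited values lay between 0.967 and 1.04.

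Samples were grouped by their titles. Collagen genes were classed by type number. Differences were taken on log2(FPKM + 1), which understates the change of low genes, over genes with at least 1 FPKM in at least 1 library, and a gene counted as higher or lower at 2-fold, with no test. Members and lists were chosen with earlier results of these data known. Every collagen gene may be named. Those at 10 FPKM or more are given in each library. From the enzyme and receptor lists the 2 largest rises and falls from D0 to iPSCs may be named, and Ddr1 was the only named rise. A 4-gene muscle list had 3 genes in the table.

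Intervals reached a median of 97.9% of the FPKM to either side for collagen genes at 10 FPKM or more, so the intervals, which hold no measured spread between samples, overlapped for nearly all comparisons. All members had an OK status. Relative depth came from the steps between values under 0.5 FPKM. Ratios of chains were taken where both reached 1 FPKM. Of the 44 genes, 43 had 1 GENCODE M1 gene model, each overlapping its locus in the table. RefSeq windows (table build GRCm38.p6) were placed on mm9 by exact match. The loci of Col27a1 and Col7a1 overlap Mir455 and Mir711, both listed at 0, and that of Col10a1 overlaps Nt5dc1, which reached 4.19 FPKM. The counting was tested on simulated data. Python 3.11.15, pandas 2.3.3, numpy 2.4.6 and matplotlib 3.10.9 were used. Alternatives were the pseudocount, the fold, the filter, the scaling and the genes in the share.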

Additional observations from a re-analysis of the deposited data

Results flagged for a closer look

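For 5 collagen genes the difference between the sorted fractions was at least 2-fold on 1 day and of the opposite sign on another, with differences given as Thy-1- minus Thy-1+ or SSEA-1+ minus SSEA-1- on the log2 scale. Col18a1 stood at -2.89 on day 9 and at 0.45 on day 12, which is from 22.7 against 175 FPKM to 125 against 91.3 FPKM. Col9a2 stood at -0.065 on day 9 and at 2.57 on day 16, and Col2a1 at -0.31 and 1.04 on the same days. On day 6, also sorted by Thy-1, Col9a2 stood at 0.050 and Col2a1 at 0.85, with the sign of day 16. The day 9 levels of Col9a2 were low, at 0.340 against 0.402 FPKM. Col25a1 went the other way, with 1.34 on day 6 and -0.56 on day 12. Col27a1 stood at -1.27 on day 6 and at 0.043 on day 12, where both fractions were below 0.5 FPKM. The differences between days were not tested, since each fraction had 1 library. Days 6 and 9 were sorted by Thy-1 and the later days by SSEA-1, and the effects of marker and day cannot be told apart.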

How the results depend on the processing

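Each condition had 1 library, so no replicate numbers pair the samples. A fit with the sorting day as a block would take 4 days and both surface markers as repeats of 1 contrast and was not run. Of 294 recomputed counts, class medians and shares, 234 stayed within 1.5 times of the reported value (0.58 on the log2 scale for medians), and 60 moved further. None of the 90 recomputed class medians among them changed sign, and counts and shares have no sign. Setting all libraries to the same total FPKM moved the median of all genes from 0.03 to 0.18 between iPSCs and D0, from 0.05 to 0.35 between D16S+ and D0, from -0.02 to 0.12 between D3 and D0 and from -0.02 to 0.06 between D16S+ and D16S-. Under this scaling, with or without the collagen genes in the total, the higher genes numbered 3 in D6T+ against D0 and 1 in iPSCs against D16S+, and the latter were 2 under median-of-ratios scaling.

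With a pseudocount of 0.1 the higher genes against D0 numbered 6 in iPSCs, 7 in mESCs, 5 in D3, 5 in D6T+, 7 in D16S+ and 7 in D16S-. They numbered 2 in D6T- against D6T+, 4 in D16S+ against D16S- and 7 in iPSCs against mESCs, and 8 genes were lower in iPSCs than in D16S+. At a 4-fold threshold the higher genes against D0 numbered 1 in each of iPSCs, mESCs, D3, D16S+ and D16S- and 0 in D6T+, and the lower genes 9 in D3 and 3 in D6T+. Between fractions 12 genes were lower on day 6, 11 on day 9 and 0 on day 12, and the higher genes numbered 0 on day 6, 0 on day 12 and 1 on day 16. From D16S+ to iPSCs 0 were higher and 2 lower, and 0 were higher in iPSCs than in mESCs. With at least 5 FPKM required, 1 gene was higher than D0 in each of iPSCs, mESCs, D3 and D16S+, 0 were higher in D6T- than D6T+ and 1 in D16S+ than D16S-.

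The class medians moved with the filter and the pseudocount. At 5 FPKM the fibrillar medians were -6.19 in iPSCs and -5.93 in D16S+ against D0 and -2.06 in D16S+ against D16S-, and the medians of other types were -4.34, -4.03 and -2.59 in these comparisons and -1.77 in D3 against D0. At the main setting the medians of other types were, in the same order, -0.99, -0.98, -0.43 and -0.64. With a pseudocount of 0.1 the medians of other types were -2.60 in iPSCs and -2.40 in D16S+ against D0 and -1.03 in D16S+ against D16S-. Without a filter, the type IV medians were -1.03 in iPSCs and -1.59 in D16S+ against D0, where Col4a3 and Col4a4 enter, and that of other types was -0.39 in D16S+ against D0. Without Col1a1, Col1a2 and Col3a1 the collagen share was 0.511% in D0, 0.247% in D3, 0.115% in D6T-, 0.365% in D6T+, 0.0968% in D9T-, 0.303% in D9T+ and 0.214% in D12S-. Without the 100 highest other genes in the total it was 0.248% in D9T- and 0.0678% in mESCs.

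Genes near 1 FPKM rest on few fragments, the total fragments are unknown, and the modelled intervals overlap for most comparisons, so small counts of higher genes, which moved most, are the least certain values here. With 1 library for each condition, a difference between libraries of the same condition cannot be told from a difference between conditions.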
